A study of Homo sapiens with 12 samples.

Results

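The comparison was between 2 human glioblastoma cell lines, U87 and U373, after both had been kept for 72 h in 1 U/ml BCT-100. BCT-100 is a pegylated recombinant human arginase, an enzyme that breaks down the arginine of the culture medium. The question was which expression differences between the lines under arginine depletion were as large as in PBS, the vehicle. It was also asked which were small or absent under depletion and which were large under depletion alone. A gene was counted as a member when its deposited value was at least 10 in at least 3 of the 6 BCT-100 libraries, which 13206 of 19824 table entries met. Of these, 11361 were at 10 or more in all 6 libraries, 677 were so in all 3 U87 libraries and in no U373 library, 601 the reverse, and 567 were mixed. Members that passed through a single line had to differ, and no weight is placed on their number. At the edge of the rule, 1330 members reached 10 in exactly 3 libraries, with a median mean value of 35.77, and 254 entries reached it in exactly 2, with a median of 7.52.

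The series holds 12 libraries, 3 for each of U87 in PBS, U87 in BCT-100, U373 in PBS and U373 in BCT-100, all harvested at 72 h. Cells of both lines were labelled wild-type and grown in high-glucose DMEM with serum and antibiotics, and total RNA was taken with Trizol. The treatment protocol field names the PBS control for every sample, so groups follow the treatment label and the title. The labels do not say whether the 3 libraries of a group came from separate cultures, so p-values measure the spread between these libraries. Each line is a single culture-adapted model. Stocks named U87 in repositories have been found to differ from the tumour of origin. Stocks named U373 have been traced in authentication surveys to another glioblastoma line, and the stock used is not given in the sources used here. Recovered depth was 18.89 to 25.92 M reads a library over the series and 21.0 to 25.92 M in the BCT-100 libraries. In U373 PBS replicate 1 the interferon genes stood apart, as described with those genes.

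Arginine is needed for protein, polyamine, nitric oxide and creatine synthesis, and cells that express ASS1 and ASL can rebuild it from citrulline. Loss of an amino acid leaves tRNAs uncharged, which activates the kinase GCN2 and the transcription factor ATF4, and ATF4 in turn drives amino acid synthesis and transport genes. Glioblastoma lines differ widely in ASS1, in p53 function, in the NF-kB programme of inflammatory cytokines and in their retention of astrocyte genes.

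Most members differed between the lines under depletion, and most of those differences were also there in PBS. With limma on log2(value + 1) and a Benjamini-Hochberg adjusted p under 0.05, 11228 members (85.0%) were called in BCT-100. U87 was higher at 5588 (42.3%) and U373 at 5640 (42.7%). A difference of at least 2-fold was called at 2357 members higher in U87 (17.8%) and 2315 higher in U373 (17.5%). In PBS, 11025 members (83.5%) were called, 5711 (43.2%) higher in U87 and 5314 (40.2%) higher in U373, and 4533 (34.3%) were called at 2-fold or more. Over all 13628 genes fitted, 84.3% were called in BCT-100, 83.1% in PBS and 56.8% for the difference between media described next. The same direction was called in both media for 8823 members and the opposite direction for 968. Of the 4672 members called at 2-fold or more in BCT-100, 3444 were so in PBS in the same direction. The BCT-100 and PBS comparisons share no library. Across genes, which are not independent replicates, the U87 minus U373 difference (the gap) in BCT-100 and in PBS had a Pearson r of 0.93 and a Spearman rho of 0.84 over 13206 members. The r was 0.85 over the 11928 members that reached 10 in some BCT-100 library of each line. The median absolute gap was 0.68 in BCT-100 and 0.64 in PBS on the log2 scale, with a median SE of 0.07 in BCT-100. List counts given further on are read against 42.3% of all members called higher in U87 and 42.7% higher in U373 in BCT-100 (43.2% and 40.2% in PBS), and list members that passed through a single line had to differ. In these bulk libraries, fewer cells that express a gene and less RNA per cell cannot be told apart.

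Members were sorted by the gap in BCT-100, the gap in PBS and the difference of the 2 gaps, which was tested in the same limma fit and called at 7634 members (57.8%). That difference was above 0, toward U87, at 3493 (26.5%) and below 0, toward U373, at 4141 (31.4%). Counts of this difference within lists are read against these shares. A gap was termed held when it was called in both media in the same direction and the 95% interval of the difference lay within 1.5-fold either way. A held gap could therefore still have a called difference between media, smaller than that bound. There were 4261 held members (32.3%), of which 918 differed by at least 2-fold in BCT-100. Gaps called in both media that were at least 1.5-fold larger in BCT-100 were termed widened (876, 6.63%) and those at least 1.5-fold smaller narrowed (928, 7.03%). Gaps called in opposite directions were termed reversed (918, 6.95%), and only 52 of these reached 2-fold in BCT-100. New gaps were called at 2-fold or more in BCT-100 with a PBS interval inside 1.5-fold (259, 1.96%), 117 higher in U87 and 142 higher in U373. Lost gaps met the mirror rule (224, 1.7%), 124 higher in U87 and 100 higher in U373 in PBS. The remaining 5740 (43.5%) met no rule. Among them 744 were called in neither medium, 1339 in BCT-100 alone and 1150 in PBS alone. Over all members, 1437 were called in BCT-100 alone and 1234 in PBS alone. Most new and lost gaps were therefore still called in the other medium, at a size inside the 1.5-fold bound. Class counts within lists are read against these class shares. Counts of new and lost gaps follow the chosen bounds closely. The bound applies to the PBS interval for new gaps and to the BCT-100 interval for lost gaps. A bound of 2-fold gave 750 new and 642 lost gaps, and the narrowest bound tried gave 85 and 58.

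**Figure D1:**
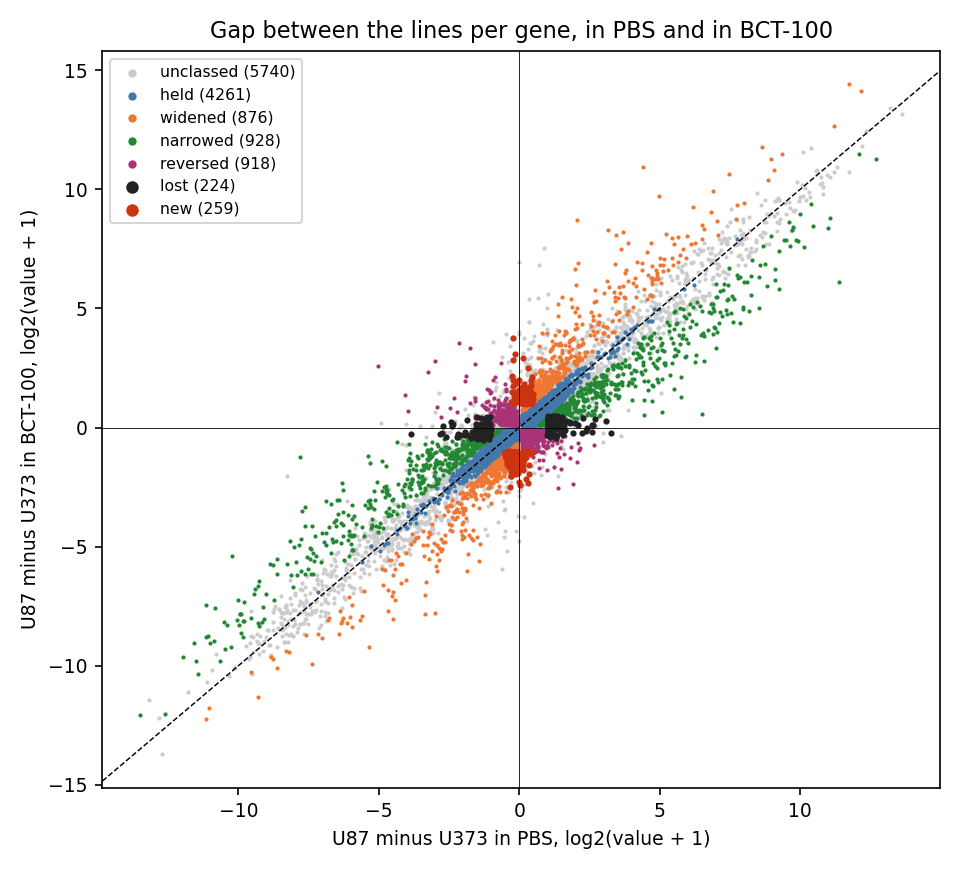
The U87 minus U373 gap of each of 13206 members in PBS (horizontal) and in BCT-100 (vertical), both in log2(value + 1), coloured by class with the number of members. The cloud follows the dashed line of equal gaps (r = 0.93), with new gaps along the vertical axis and lost gaps along the horizontal axis.

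Inflammatory genes were higher in U87 under depletion, mostly by far more than in PBS. Of the 36 members on a list of inflammatory cytokines and NF-kB targets, 33 were called higher in U87 in BCT-100 (against 42.3% of all members), 2 higher in U373 and 1 neither. The median gap of the list was 3.96 in BCT-100 and 1.37 in PBS. For 10 of the 36, the BCT-100 filter was passed through a single line. The list held 18 widened and 5 new gaps (against 6.63% and 1.96% of all members). The difference of the gaps was called toward U87 at 29 (26.5% of all members) and toward U373 at 3 (31.4% of all members). In summed value, the list ran from 306293 to 331814 over the U87 BCT-100 libraries and from 44332 to 53376 over the U373 ones. In PBS the sums were 37937 to 42637 and 18351 to 18974.

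Among secreted members, IL6, the cytokine that signals through STAT3, read 20699, 19634 and 20940 in the U87 BCT-100 libraries and 134, 192 and 189 in the U373 ones. Its PBS values were 220.0, 211 and 216 in U87 and 48.8, 41 and 60 in U373, so every U87 library lay above every U373 library in both media. Groups did not overlap at 85.6% of all members in BCT-100 and 84.9% in PBS. The gap was 6.91 ± 0.14 (SE) in BCT-100 against 2.11 ± 0.14 in PBS, and the difference of the gaps was 4.80 ± 0.19 (limma adjusted p = 2.49e-11). CXCL8, the neutrophil chemokine interleukin 8, had the highest value of the list, 99706, 90104 and 103047 in U87 BCT-100 and 21719, 22308 and 30707 in U373 BCT-100. In PBS the lines were close, at 1611, 1806 and 1624 and 1858, 2013 and 1958, with U373 slightly higher. Its gap of 1.99 ± 0.13 was therefore new, against -0.21 ± 0.13 in PBS (difference 2.20 ± 0.18, limma adjusted p = 6.78e-06). U373 BCT-100 replicate 3 was the highest of its group for CXCL8.

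CCL2, the monocyte chemokine, changed direction. It read 254, 240.1 and 265 in U87 PBS and 833, 768 and 1004 in U373 PBS, but 1450, 1359 and 1429 in U87 BCT-100 and 199, 103 and 126 in U373 BCT-100. No library of the lower line reached the other line in either medium, and the difference of the gaps was 5.12 ± 0.29 (limma adjusted p = 1.21e-07). IL32, a cytokine of lymphoid and epithelial cells, reversed likewise, from -3.25 ± 0.21 in PBS to 2.34 ± 0.21 in BCT-100. CXCL1 and CCL20 were listed at 0 in all 6 U373 libraries. In U87 CXCL1 read 30.5, 37.3 and 24.6 in PBS and 856, 852 and 836 in BCT-100, at least 852-fold above a floor of 3 reads over the U373 BCT-100 group. CSF3, the granulocyte colony-stimulating factor, was also at 0 in U373 and read 22148, 20397 and 22614 in U87 BCT-100, with the largest log2 gap toward U87 of all members (at least 21800-fold over the same floor). PTGS2, the inducible cyclooxygenase, was at 0 in U373 and at 3667, 3062 and 3709 in U87 BCT-100, against 380.4, 390.2 and 423 in U87 PBS. IL1B, interleukin 1 beta, averaged 35793 in U87 BCT-100 and 14.1 in U373 BCT-100, a gap of 11.28 ± 0.23 against 8.96 ± 0.23 in PBS. LCN2 and IL24 had gaps of 6.84 ± 0.59 and 5.38 ± 0.63 in BCT-100 against 0.69 ± 0.59 and 0.34 ± 0.63 in PBS, but their PBS intervals were too wide for any class.

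Inside the pathway, BIRC3, an inhibitor of apoptosis and ubiquitin ligase of the TNF receptor complex, gave the widest new gap among the named genes. Its values were 6015, 5673 and 5970 in U87 BCT-100, 408, 409 and 508 in U373 BCT-100, 329, 337 and 306 in U87 PBS and 359, 362 and 405 in U373 PBS. The U87 BCT-100 libraries stood far above the other 9, of which the U373 BCT-100 libraries were the highest by a small amount. The gap moved from -0.21 ± 0.08 to 3.74 ± 0.08 (limma adjusted p of the difference = 1.38e-16). NFKBIZ, a nuclear co-activator for secondary NF-kB targets such as IL6, read 6596, 6480 and 6709 against 424, 456 and 402 in BCT-100, and its gap widened from 0.79 ± 0.07 to 3.95 ± 0.07. TRAF1, an adaptor of TNF receptors, reversed from -0.63 ± 0.10 to 2.71 ± 0.10. SOD2, the mitochondrial superoxide dismutase, read 52483, 49114 and 53440 in U87 BCT-100 and 3046, 3051 and 3319 in U373 BCT-100, a gap of 4.04 ± 0.04 against 1.62 ± 0.04. The pathway's own feedback genes NFKBIA and NFKB2 had new gaps of 2.11 ± 0.06 and 1.81 ± 0.06, while TNFAIP3 widened to 3.52 ± 0.08. VCAM1 and CSF1 were the members called higher in U373. VCAM1, the adhesion receptor for leukocytes, read 134, 116 and 163 in U373 BCT-100 and 1.04, 0 and 0 in U87 BCT-100, and its gap was -6.76 ± 0.49 in BCT-100 and -6.76 ± 0.49 in PBS.

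The NF-kB sites of these promoters are well studied, so the reference sequence around their starts was searched for GGG, any 2 bases and then TTTCC, on either strand, in a window of 250 bases before to 50 after the RefSeq start (GRCh38.p14, the reference sequence and not that of the lines). A window was matched by symbol for 10106 of the 13180 members with a unique symbol. The motif was present in 13 of 29 (44.8%) windows of the inflammatory list and in 215 of 10106 (2.13%) of all members. The list holds genes picked as NF-kB targets, so this share describes the list and is no separate evidence. By class, list genes included, the motif was present in 19 of 337 (5.64%) of the gaps that widened toward U87 and in 4 of 98 (4.08%) of the new gaps toward U87. It was present in 34 of 1757 (1.94%) of the held ones toward U87 and in 4 of 74 (5.41%) of the lost gaps that had favoured U373. Among reversed gaps it was in 13 of 316 (4.11%) toward U87 and 7 of 418 (1.67%) toward U373. List genes made up 8 of the 19 widened, 2 of the 4 new and 1 of the 13 reversed matches toward U87. Without them the shares were 11 of 323 (3.41%), 2 of 93 (2.15%) and 12 of 315 (3.81%). CXCL1, CXCL2, CXCL3 and CXCL5, which lie near each other on chromosome 4, each had it close before the start. CXCL8 had no match in its window. The windows of 3 genes are shown because their gaps opened or grew under depletion, as the 250 bases before the start on the plus strand, with the match in capitals (IL6 chr7:22726950-22727199, BIRC3 chr11:102317234-102317483 and NFKBIZ chr3:101827740-101827989).
IL6: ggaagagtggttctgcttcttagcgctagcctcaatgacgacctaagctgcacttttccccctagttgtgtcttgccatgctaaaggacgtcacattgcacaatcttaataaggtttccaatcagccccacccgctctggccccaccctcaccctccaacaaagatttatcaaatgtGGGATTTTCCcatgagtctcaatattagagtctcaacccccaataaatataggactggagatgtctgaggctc
BIRC3: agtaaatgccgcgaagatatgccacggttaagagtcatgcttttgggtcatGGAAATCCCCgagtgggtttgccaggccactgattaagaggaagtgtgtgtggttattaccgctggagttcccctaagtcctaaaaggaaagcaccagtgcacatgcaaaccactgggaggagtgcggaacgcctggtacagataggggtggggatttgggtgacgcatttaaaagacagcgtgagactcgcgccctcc
NFKBIZ: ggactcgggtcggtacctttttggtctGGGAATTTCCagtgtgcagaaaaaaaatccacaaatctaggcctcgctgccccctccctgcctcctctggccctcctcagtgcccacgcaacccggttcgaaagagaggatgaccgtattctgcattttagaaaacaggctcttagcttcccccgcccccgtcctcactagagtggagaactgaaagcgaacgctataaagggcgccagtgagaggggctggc

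Interferon genes leaned toward U87 under depletion, and their PBS reference was unsettled by 1 library. Of 36 members on the interferon list, 20 were called higher in U87 in BCT-100, 7 higher in U373 and 9 neither, with a median gap of 0.81. In PBS, 8 were called higher in U87 and 12 higher in U373, with a median of -0.09. The list's summed value was 38805 in U373 PBS replicate 1 against 22533 and 22539 in the other two U373 PBS libraries. Without that replicate, 20 members were called higher in U87 in PBS and 11 higher in U373, the PBS median was 0.20, and the BCT-100 counts were 25 and 9. Without U373 BCT-100 replicate 2, 4 members rather than 7 were called higher in U373 in BCT-100, as under voom weights. The difference of the gaps was toward U87 at 20 members and toward U373 at 1 with all libraries, and at 24 and 1 without the replicate. Over all members, with all libraries, the shares were 26.5% and 31.4%. Among single genes, IFI35 read 737, 814 and 796 in U87 BCT-100 and 81.6, 116 and 114 in U373 BCT-100. In PBS it read 289, 317 and 306 in U87 and 390.4, 239.9 and 234 in U373, so its new gap of 2.92 ± 0.17 rested on overlapping PBS groups. Without U373 PBS replicate 1 its PBS gap was 0.36 and the gap in BCT-100 met the rule for widened instead. STAT2, which transduces the interferon signal, widened from 0.71 ± 0.08 to 1.67 ± 0.08. IRF7, the amplifier of interferon transcription, read 159.5, 126 and 142 in U87 BCT-100 and 1.06, 0 and 0 in U373 BCT-100. XAF1, a proapoptotic interferon target, was among those higher in U373, at 358 ± 13.4 (SD, n = 3) against 42.5 ± 4.84.

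Antigen presentation genes split by class. Of 16 members for MHC class I and peptide loading, 9 were called higher in U87 and 5 in U373 in BCT-100, against 4 and 11 in PBS. B2M, the invariant light chain, read 31769, 31394 and 32393 against 17623, 17692 and 18377 in BCT-100 and 21348, 21955 and 23174 against 24971, 25610 and 25986 in PBS, a reversal of 1.04 ± 0.04 (limma adjusted p = 3.38e-14). HLA-B and the immunoproteasome subunit PSMB8 reversed as well, and the gaps of HLA-C, HLA-F and TAP1, higher in U373 in PBS, were lost. TAP2, the partner of TAP1 in the peptide transporter, stayed higher in U373 at -0.78 ± 0.05 against -0.67 ± 0.05. MHC class II genes were higher in U87 in both media. HLA-DRA read 1739, 1640 and 1635 and CD74, the invariant chain, 2650, 3016 and 2864 in U87 BCT-100, and both were listed at 0 in all 6 U373 libraries. Of the 13 class II members, 12 were called higher in U87 in each medium, and 11 of the 13 passed the filter through a single line. The HLA-DOB gap in BCT-100, at -1.14 ± 0.49, was called toward U373, a call lost without U87 BCT-100 replicate 2 (-1.03) or 3 (-0.78), without U373 BCT-100 replicate 2 (-1.10) or 3 (-0.83) and with a pseudocount of 0.5. HLA genes, like CXCL1, CXCL2 and CXCL3, the metallothioneins and the ribosomal proteins, have near-identical copies between which estimated counts can be split, so their separate values are uncertain.

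Cell division genes moved the other way. All 40 members of the mitosis list were called higher in U373 in BCT-100 (against 42.7% of all members). In PBS, 31 were called higher in U373, 2 higher in U87 and 7 neither. The median gap was -1.77 in BCT-100 and -0.43 in PBS. The list held 20 widened and 13 new gaps (against 6.63% and 1.96% of all members). Its summed value ran from 29909 to 31265 in U87 BCT-100 and from 78868 to 83233 in U373 BCT-100. In PBS the sums were 145227 to 148655 and 210441 to 216632, so the list was lower under depletion in every library of both lines and lowest in U87.

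PLK1, the kinase that drives mitotic entry, read 3133, 3287 and 3183 in U87 PBS and 2775, 2668 and 2648 in U373 PBS, then 141, 149 and 136 in U87 BCT-100 and 655, 659 and 583 in U373 BCT-100. U87 was slightly higher in PBS and every U87 library was below every U373 library in BCT-100. The new gap was -2.15 ± 0.06 (difference -2.39 ± 0.08, limma adjusted p = 2.57e-15). BIRC5, survivin of the chromosomal passenger complex, read 362, 283 and 271 against 1616, 1776 and 1773 in BCT-100 and 3285, 3183 and 3319 against 4103, 4005 and 4088 in PBS. Its BCT-100 gap was -2.50 ± 0.08. FOXM1, the transcription factor of the G2/M programme, gave -1.92 ± 0.03 against -0.24 ± 0.03, and CCNB1, cyclin B, -1.26 ± 0.04 against -0.07 ± 0.04. MKI67, the proliferation marker, differed in PBS already and widened, at 1624, 1722 and 1589 in U87 BCT-100 and 4703, 4911 and 4881 in U373 BCT-100. The kinase gene PBK had a new gap of -1.80 ± 0.06, the cytokinesis scaffold gene ANLN a widened gap of -2.02 ± 0.04 and the chromokinesin gene KIF4A a widened gap of -2.22 ± 0.04.

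The cell cycle homology region, TTTGAA, is the element through which the DREAM and MuvB complexes hold mitotic promoters. Searched on either strand of the same 300-base windows, these letters were present in 25 of 34 (73.5%) windows of the mitosis list and in 994 of 10106 (9.84%) of all members. The CCAAT box, CCAAT on either strand, which accompanies it in such promoters, was present in 24 of 34 (70.6%) and 3749 of 10106 (37.1%). The list was assembled from mitotic genes, so these shares describe the list and are no separate evidence. By class, TTTGAA was present in 27 of 108 (25%) of the windows of new gaps toward U373 and in 8 of 98 (8.16%) of those of new gaps toward U87. Of the 27 matches, 6 were on the mitosis list, and without the list the share was 21 of 98 (21.4%). It was 11 of 74 (14.9%) for lost gaps that had favoured U373 and 13 of 96 (13.5%) for those that had favoured U87. For widened gaps it was 51 of 329 (15.5%) toward U373 and 38 of 337 (11.3%) toward U87. Of the 51 matches, 16 were on the mitosis list, and without the list the share toward U373 was 35 of 310 (11.3%). Among the DNA replication genes TTTGAA was present in 1 of 36 (2.78%). These 2 windows show the 250 bases before the start on the plus strand with matches in capitals, PLK1 for a new gap (chr16:23678639-23678888) and KIF4A for a widened gap (chrX:70289854-70290103).
PLK1: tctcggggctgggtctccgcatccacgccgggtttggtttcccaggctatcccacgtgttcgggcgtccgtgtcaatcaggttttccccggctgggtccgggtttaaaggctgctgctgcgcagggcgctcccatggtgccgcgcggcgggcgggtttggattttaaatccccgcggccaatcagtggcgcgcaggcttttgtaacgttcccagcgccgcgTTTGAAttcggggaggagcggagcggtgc
KIF4A: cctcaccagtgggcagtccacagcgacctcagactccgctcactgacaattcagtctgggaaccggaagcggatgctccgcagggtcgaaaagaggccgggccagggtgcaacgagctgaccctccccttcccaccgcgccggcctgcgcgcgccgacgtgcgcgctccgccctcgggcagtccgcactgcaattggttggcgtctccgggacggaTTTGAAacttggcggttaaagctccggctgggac

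DNA replication genes were called higher in U373 more often than in U87 in both media. Of 44 DNA replication members, 27 were called higher in U373, 8 higher in U87 and 9 neither in BCT-100. In PBS these counts were 24, 12 and 8. The median gap was -0.30 in BCT-100 and -0.20 in PBS, a signed median in which opposite gaps cancel. Held gaps made up 20 of the 44 (against 32.3% of all members), and none was new or lost (1.96% and 1.7% of all members). TYMS, thymidylate synthase, was held at -1.68 ± 0.03 against -2.05 ± 0.03. GINS1, a subunit of the replicative helicase, widened from -1.14 ± 0.07 to -2.15 ± 0.07, and POLA2, a subunit of the polymerase alpha complex, widened toward U87, from 0.55 ± 0.07 to 1.22 ± 0.07.

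Targets of p53, which stops the cycle and promotes death after damage, were mostly higher in U87. Of 32 members, 29 were called higher in U87 and 2 higher in U373 in BCT-100, against 24 and 2 in PBS (42.3% and 42.7% of all members in BCT-100, 43.2% and 40.2% in PBS), with medians of 1.43 and 0.90. CDKN1A, the cyclin-dependent kinase inhibitor p21, read 6628, 7003 and 6514 in U87 BCT-100 and 356, 359 and 335 in U373 BCT-100. In PBS it read 4086, 4112 and 4318 and 471, 576 and 527, so the gap widened from 2.99 ± 0.06 to 4.26 ± 0.06 (limma adjusted p of the difference = 6.29e-11). MDM2, the ubiquitin ligase of p53, widened from 1.55 ± 0.04 to 2.18 ± 0.04, and ZMAT3, an RNA-binding p53 target, from 2.23 ± 0.05 to 2.86 ± 0.05. FAS, BTG2, RRM2B and CYFIP2 had new gaps, of 1.21 ± 0.07, 1.41 ± 0.14, 1.14 ± 0.05 and 1.11 ± 0.04. TNFRSF10B, the death receptor DR5, was held at 1.60 ± 0.03. PLK2, a kinase of the centriole cycle, went against the list at -1.26 ± 0.04, narrowed from -3.19 ± 0.04.

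Of 20 cyclin, CDK inhibitor and E2F members, 9 were called higher in U87 and 10 in U373 in each medium, near the shares over all members. CDK6 was higher in U373 in both media, at -2.28 ± 0.06 and -2.91 ± 0.06. CCND2, cyclin D2, was listed at 0 in all U373 PBS libraries and at 239.5, 286 and 254 in U373 BCT-100. U87 read 80.2, 91.9 and 94.6 in PBS and 367, 399 and 376 in BCT-100, so a gap present in PBS had shrunk to 0.55 ± 0.19 under depletion. The CDK inhibitor genes CDKN2A, CDKN2B and CDKN2C were listed at 0 in all 12 libraries. Of 23 members for the BCL2 family and death receptors, 16 were called higher in U87 (against 42.3% of all members) and 6 in U373 (against 42.7%) in BCT-100. In PBS these counts were 14 and 7, and 2 of the 23 passed through a single line. Gaps were held at 11 of the 23 (against 32.3% of all members). Among the held were MCL1 at 0.85 ± 0.03 and BCL2L1 at 1.19 ± 0.03, both antiapoptotic and higher in U87. HRK, a BH3-only activator of death, reversed from 1.38 ± 0.45 to -2.55 ± 0.45, at values of 42.4, 55.8 and 68.9 in U373 BCT-100 and 10.4, 5.41 and 10.9 in U87 BCT-100.

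ASS1, which makes argininosuccinate from citrulline and so limits the resynthesis of arginine, kept a gap under depletion that was smaller than in PBS. It read 2070, 2048 and 1959 in U87 PBS and 23.9, 25.7 and 26.4 in U373 PBS, and 4580, 4558 and 4390 in U87 BCT-100 and 679, 688 and 629 in U373 BCT-100. The gap narrowed from 6.27 ± 0.06 to 2.76 ± 0.06 (difference -3.51 ± 0.08, limma adjusted p = 3.38e-17), and the groups did not overlap in either medium. ASL, the next enzyme, was slightly higher in U373, at -0.15 ± 0.06 (limma adjusted p = 0.0352), a call that was lost without U87 BCT-100 replicate 1 (-0.12) or 2 (-0.13) and without U373 BCT-100 replicate 1 (-0.12). ARG2, the mitochondrial arginase, was higher in U87 in PBS (311, 318 and 266 against 90.2, 108 and 116), and its gap was lost in BCT-100 (-0.25 ± 0.13). SLC7A1, the main importer of arginine, reversed. It read 4862, 4736 and 4924 against 2530, 2510 and 2517 in PBS and 6820, 6707 and 7044 against 12048, 12838 and 12878 in BCT-100, a difference of -1.82 ± 0.04 (limma adjusted p = 3.38e-17). NAGS, which makes the activator of the urea cycle, was higher in U87 in both media, at 2.62 ± 0.17 and 2.77 ± 0.17. DDAH1, which clears methylated arginines, was higher in U373 and widened to -4.33 ± 0.05, while its relative DDAH2 had a new gap toward U87 of 1.66 ± 0.13. Of the 11 arginine and urea cycle members, 4 were called higher in each line in BCT-100, close to the shares over all members. Without U87 BCT-100 replicate 3, 2 rather than 4 were called higher in U373. ARG1, OTC and NOS1, NOS2 and NOS3 did not meet the member rule.

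Polyamines are made from the ornithine that arginase releases. ODC1, the enzyme that makes putrescine, reversed from 0.41 ± 0.03 to -0.82 ± 0.03, with 6592, 6840 and 6644 in U87 BCT-100 and 11285, 12149 and 12100 in U373 BCT-100. AZIN1, which shields ODC1 from degradation, and SMOX, spermine oxidase, widened toward U373, to -1.20 ± 0.04 and -2.06 ± 0.06. ATP13A3, a polyamine transporter, was held higher in U87, at 2.06 ± 0.04. Of 19 polyamine members, 8 were called higher in U373 and 5 in U87 in BCT-100, against 7 and 8 in PBS, and 1 passed through a single line.

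Most single genes of the ATF4 programme differed less between the lines under depletion than in PBS, while their summed value differed more. Of 28 members on the list, 18 were called higher in U87 and 8 in U373 in BCT-100, and the median gap was 0.54 against 1.18 in PBS. Gaps narrowed at 9 members and were lost at 6 (against 7.03% and 1.7% of all members). The list's sum was 212170 to 218268 in U87 BCT-100 and 130273 to 138360 in U373 BCT-100. In PBS it was 44181 to 45601 and 43905 to 45365, so the sums overlapped in PBS and not in BCT-100. ATF4 itself was held, at 13691, 14340 and 13616 in U87 BCT-100 and 7682, 8506 and 8435 in U373 BCT-100, a gap of 0.76 ± 0.04 against 1.21 ± 0.04. DDIT3, the transcription factor CHOP, was held at 1.51 ± 0.07.

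ASNS, asparagine synthetase, read 1681, 1716 and 1598 in U87 PBS and 731, 796 and 736 in U373 PBS. In BCT-100 it read 17964, 18358 and 18360 and 14780, 15551 and 15985, so the lines differed by 0.24 ± 0.04 where they had differed by 1.14 ± 0.04. This gap was lost by the rule, although U87 was still called higher (limma adjusted p = 7.7e-06). STC2, a secreted stress glycoprotein, had a wide gap in PBS (4.73 ± 0.04) and 1.13 ± 0.04 in BCT-100, with 39064, 39920 and 39897 and 17307, 18850 and 18232. SESN2, an inhibitor of mTORC1, narrowed to 1.94 ± 0.05 and VEGFA, the endothelial growth factor, to 1.14 ± 0.03. CHAC1, which degrades glutathione, reversed from 1.35 ± 0.08 to -0.58 ± 0.08, and TRIB3, a feedback inhibitor of ATF4, widened toward U373, from -0.67 ± 0.05 to -1.27 ± 0.05. ATF5, a transcription factor under translational control, went the other way, at 2710, 2781 and 2695 in U87 BCT-100 and 241, 288 and 308 in U373 BCT-100 (3.29 ± 0.07 against 1.12 ± 0.07).

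The composite element of ATF4 was searched as TGATGNAA on either strand of the 300-base windows. It was present in 5 of 23 (21.7%) windows of the ATF4 list and in 183 of 10106 (1.81%) of all members, and the list was assembled from known targets. ASNS, a lost gap (chr7:97872409-97872658, minus strand), and CHAC1, a reversed gap (chr15:40953221-40953470, plus strand), each had 1 match, in capitals, in the 250 bases before the start.
ASNS: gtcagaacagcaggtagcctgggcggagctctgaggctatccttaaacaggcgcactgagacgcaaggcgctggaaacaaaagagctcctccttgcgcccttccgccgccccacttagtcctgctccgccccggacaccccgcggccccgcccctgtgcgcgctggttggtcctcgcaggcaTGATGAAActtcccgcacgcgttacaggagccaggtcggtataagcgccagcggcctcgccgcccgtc
CHAC1: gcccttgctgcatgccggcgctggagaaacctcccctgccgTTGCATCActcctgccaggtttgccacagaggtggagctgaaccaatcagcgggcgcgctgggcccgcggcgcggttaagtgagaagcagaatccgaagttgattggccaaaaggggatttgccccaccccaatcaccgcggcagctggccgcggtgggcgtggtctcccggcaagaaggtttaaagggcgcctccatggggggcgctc

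More amino acid synthesis and transport genes were called higher in U373 in BCT-100 than in PBS. Among 21 members for amino acid and one-carbon synthesis, 14 were called higher in U373 and 7 in U87 in BCT-100, against 10 and 10 in PBS, and the difference of the gaps was called toward U373 at 11 (31.4% of all members) and toward U87 at 6 (26.5% of all members). PSAT1, an enzyme of serine synthesis, reversed, at 16339, 16332 and 16699 in U87 BCT-100 and 21884, 22285 and 22843 in U373 BCT-100. PSPH, the last enzyme of that pathway, widened from -1.06 ± 0.04 to -1.91 ± 0.04, and GPT2, the mitochondrial alanine aminotransferase, from -0.94 ± 0.04 to -1.78 ± 0.04. PYCR1, which completes proline synthesis, had a new gap of -1.24 ± 0.05. ALDH1L2, the mitochondrial formyltetrahydrofolate dehydrogenase, was higher in U87 in both media, at 1.60 ± 0.10 and 2.23 ± 0.10. Of 23 transporter members, 12 were called higher in U373 and 9 in U87 in BCT-100, against 9 and 13 in PBS, and 4 of the 23 passed through a single line. SLC7A11, the cystine importer, was held higher in U373 at -0.96 ± 0.08, and SLC6A6, the taurine transporter, had a new gap toward U87 of 1.39 ± 0.04. SLC6A15, a transporter of branched-chain amino acids, was listed at 0 in all U373 libraries and read 1803, 1660 and 1803 in U87 BCT-100. Of 20 cytosolic tRNA synthetases, 15 were called higher in U87 and 4 in U373 in BCT-100, against 17 and 1 in PBS (2 without U87 PBS replicate 1), and the median gap was 0.22 against 0.56. WARS was held at 1.12 ± 0.03. The difference of the gaps was called toward U373 at 17 of the 20 (31.4% of all members).

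**Figure D2:**
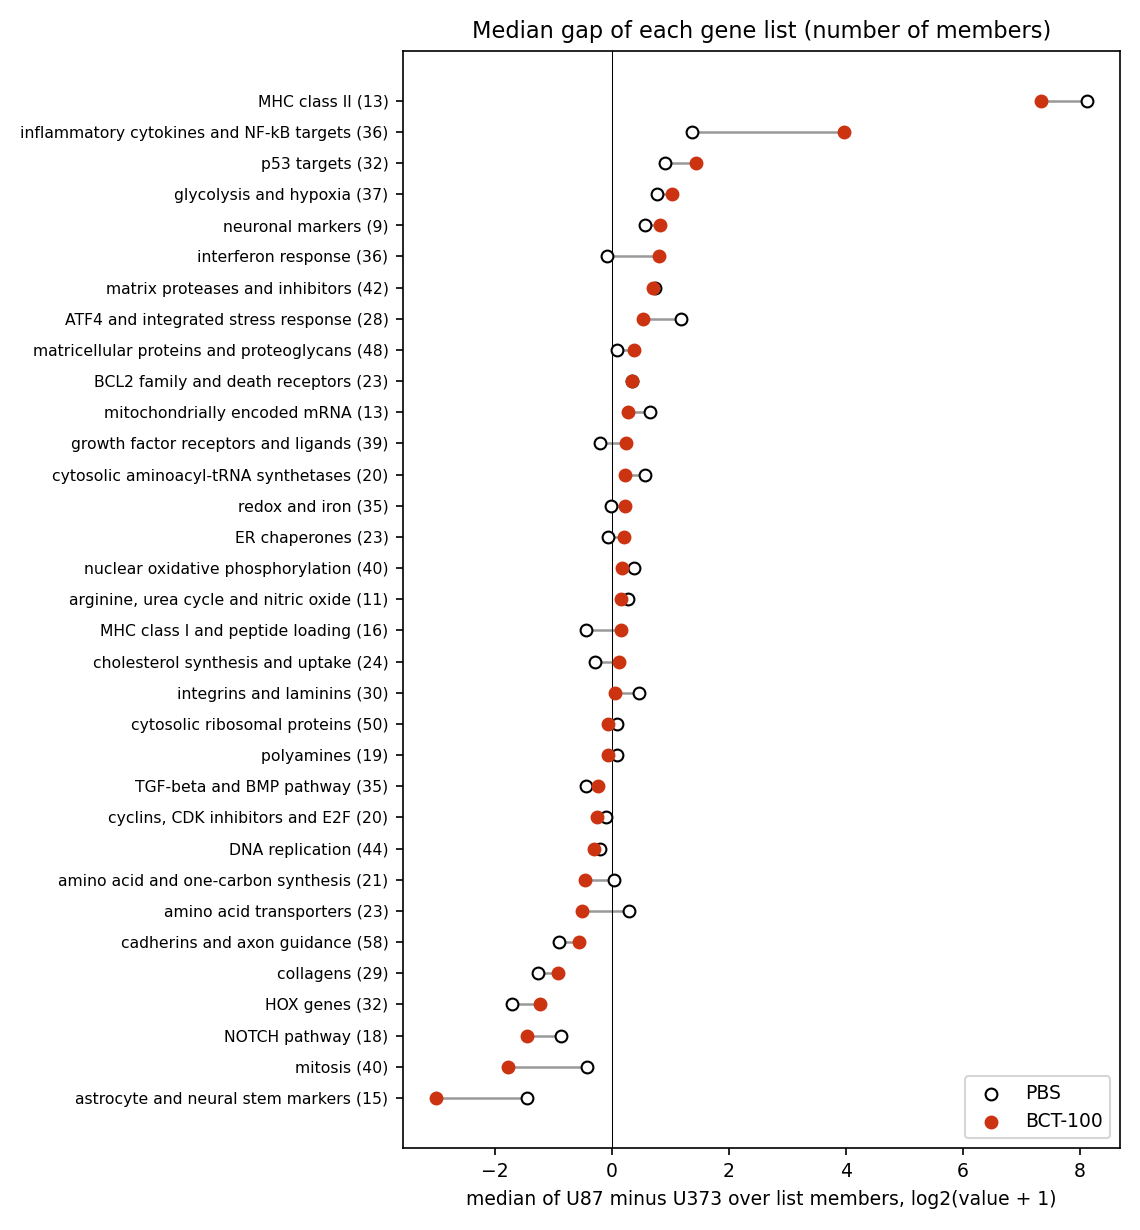
Median U87 minus U373 gap over the members of each list with at least 9 members, in PBS (open circles) and in BCT-100 (filled circles), in log2(value + 1). The inflammatory list moved from 1.37 to 3.96, the mitosis list from -0.43 to -1.77 and the ATF4 list from 1.18 to 0.54.

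Outside these pathways, the widest new gaps toward U87 were at ANK3, the ankyrin of neuronal membranes, and PNRC1, a nuclear receptor coactivator. ANK3 read 449, 479.8 and 484 in U87 BCT-100 and 49.8, 60.8 and 53 in U373 BCT-100, against 256 ± 7.13 (SD, n = 3) and 287 ± 30.2 in PBS (difference 3.25 ± 0.15, limma adjusted p = 5.8e-13). PNRC1 read 3840, 3912 and 3884 against 546, 603 and 473 in BCT-100 and was 346, 329 and 313 and 378, 372 and 399 in PBS. INSIG1, which retains the sterol sensor in the endoplasmic reticulum, gave 2.48 ± 0.05 against 0.31 ± 0.05. Of 24 cholesterol members, the difference of the gaps was called toward U87 at 17 (26.5% of all members), with or without any single library. It was called toward U373 at 4 (31.4% of all members). The latter count was 2 without U87 PBS replicate 3, U87 BCT-100 replicate 2 or 3, U373 PBS replicate 3 or U373 BCT-100 replicate 2. GSAP had a new gap of 2.17 ± 0.09, and the axon guidance gene SEMA5A read 538, 506 and 583 in U87 BCT-100 and 139.9, 126 and 139 in U373 BCT-100. Across the 117 new gaps toward U87, the line that differed more between media was U87 at 58 and U373 at 59. For the 142 new gaps toward U373 it was U87 at 80 and U373 at 62.

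New gaps toward U373 included FERMT1, an activator of integrins, at -2.31 ± 0.11, and CPA4, a secreted carboxypeptidase, at -2.41 ± 0.10. FERMT1 read 419, 524 and 516 in U373 BCT-100 and 109, 85.7 and 97.8 in U87 BCT-100, against 205 ± 5.42 (SD, n = 3) and 252 ± 20.6 in PBS. KITLG, the ligand of the KIT receptor, read 2871, 2963 and 3258 in U373 BCT-100 and 784, 677 and 875 in U87 BCT-100, and the lines had been close in PBS (0.35 ± 0.08). KCNH1, a voltage-gated potassium channel, gave -2.29 ± 0.23 and PARPBP, a regulator of homologous recombination, -1.57 ± 0.10. ITGA3, the alpha 3 integrin, was the highest-valued of the named new gaps toward U373, at 64684, 67397 and 64340 in U373 BCT-100 and 29358, 30301 and 29360 in U87 BCT-100, and was nearly level in PBS (0.17 ± 0.02). NOTCH2 had a new gap of -1.15 ± 0.03.

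Gaps lost by the rule had favoured either line in PBS, and a small gap could remain in BCT-100. CADM1, an adhesion molecule of synapses, read 1996, 1865 and 2013 in U373 PBS and 132, 142 and 133 in U87 PBS, and 712, 757 and 710.1 and 638, 572 and 605 in BCT-100. The PBS gap of -3.84 ± 0.06 became -0.26 ± 0.06. MARCKS, an actin-binding substrate of protein kinase C, read 7714, 7365 and 7661 against 1204, 1173 and 1075 in PBS, and 5059, 5117 and 4872 against 5270, 5031 and 5365 in BCT-100, where the groups overlapped. SLC2A1, the glucose transporter GLUT1, went from -2.74 ± 0.05 to -0.23 ± 0.05, FAM129A, a stress-induced adaptor, from -2.45 ± 0.03 to 0.21 ± 0.03, and the keratin gene KRT15 from -2.84 ± 0.11 to -0.29 ± 0.11. PROX1, OTOGL and COBLL1 were also higher in U373 in PBS and near level in BCT-100.

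Lost gaps that had favoured U87 were led by PPARGC1B, a coactivator of mitochondrial biogenesis. It read 404, 388 and 387 against 51.6, 39.8 and 30.9 in PBS and 141, 147 and 162 against 159, 163 and 213 in BCT-100, a move from 3.27 ± 0.16 to -0.24 ± 0.16. NCR3LG1, the B7-H6 ligand of natural killer cells, went from 3.09 ± 0.12 to 0.28 ± 0.12, and ITGA11, a collagen receptor, from 2.60 ± 0.08 to -0.20 ± 0.08. KIAA1549L, PTPRE, POLR3G, RAP1GAP2 and RAB3B followed, with PBS gaps between 1.92 and 2.69. For lost gaps that favoured U87 in PBS, U373 was the line that differed more between media at 76 of 124, and for those that favoured U373 it was so at 54 of 100.

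**Figure D3:**
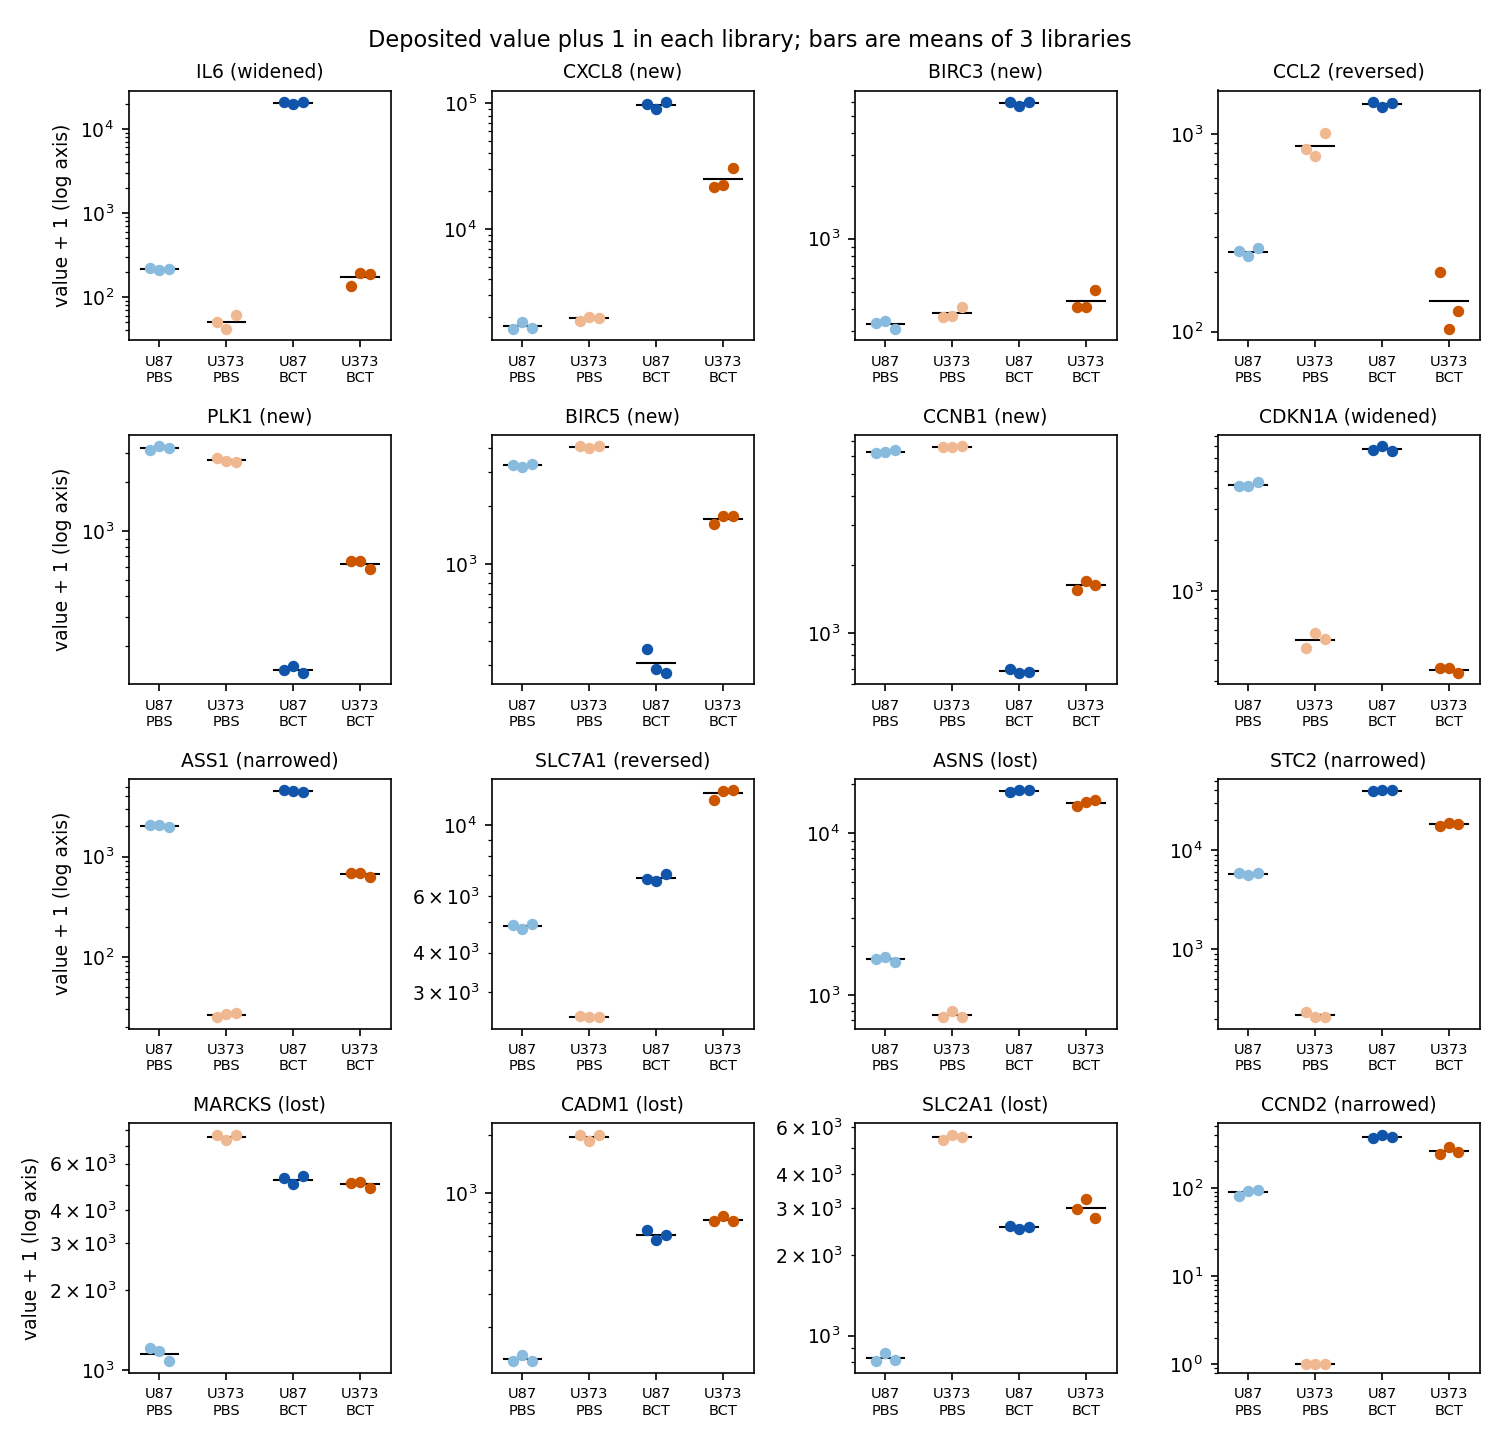
Deposited value plus 1 of 16 genes in each library (points, log axis) with the mean of 3 libraries (bars), for U87 and U373 in PBS and in BCT-100, each panel titled with the gene and its class. PLK1 and BIRC5 are close between the lines in PBS and apart in BCT-100, whereas MARCKS and CADM1 are apart in PBS and close in BCT-100.

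The largest reversal was at NRXN3, a presynaptic adhesion molecule, which read 15.6, 7.28 and 12.8 in U87 PBS and 87.5, 105 and 102 in U373 PBS, and 260.0, 286 and 329 and 50.9, 39.8 and 35.4 in BCT-100. CLDN1, a tight junction protein, reversed from -1.93 ± 0.17 to 1.97 ± 0.17. Toward U373, EVI2A went from 2.06 ± 0.14 to -1.44 ± 0.14, the kinesin gene KIF21B from 1.80 ± 0.17 to -1.29 ± 0.17, and the transcription factor gene CREB5 from 2.11 ± 0.10 to -0.96 ± 0.10. CD44, the hyaluronan receptor, reversed by less, at 38414, 38306 and 39535 in U87 BCT-100 and 26295, 27805 and 28583 in U373 BCT-100 (-0.19 ± 0.03 to 0.49 ± 0.03).

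Widened gaps toward U87 outside the cytokines were led by OLAH, a thioesterase of fatty acid synthesis, and SPRR2D, a cornified envelope protein. SPRR2D read 2754, 2816 and 2750 in U87 BCT-100 and 12.6, 27.3 and 23.4 in U87 PBS, and 0, 0 and 1.86 in U373 BCT-100. Toward U373, JAG1, a NOTCH ligand, read 41615, 43778 and 44316 in U373 BCT-100 and 958, 1053 and 1045 in U87 BCT-100, against 5529, 4848 and 5241 and 484, 501 and 508 in PBS (gap -5.41 ± 0.05 against -3.38 ± 0.05). Of 18 NOTCH pathway members, 13 were called higher in U373 and 3 in U87 in PBS already. In BCT-100, 14 were called higher in U373 (against 42.7% of all members) and 4 in U87 (against 42.3%), and 6 gaps had widened. Without U87 BCT-100 replicate 3, 2 rather than 4 were called higher in U87, and 4 of the 18 passed through a single line. NOTCH3 went against this, higher in U87 and narrowed from 5.08 ± 0.23 to 0.67 ± 0.23. PTCHD1, ST6GALNAC3 and HS6ST2, of which the last pair are enzymes of glycan synthesis, widened to -7.80 ± 0.43, -7.81 ± 0.31 and -9.23 ± 0.33. ACKR3, a scavenging chemokine receptor, read 526, 531 and 481 in U373 BCT-100 and 52.5, 29.3 and 50 in U373 PBS, and at most 2.73 in any U87 library.

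Narrowed gaps that favoured U87 included KIAA1644, FAM167A, TRABD2A and CCND2, and LTBP1, which stores latent TGF-beta in the matrix (4.34 ± 0.03 to 2.31 ± 0.03). Those that favoured U373 included PCDH20, a protocadherin, at -10.23 ± 0.60 and -5.39 ± 0.60, BAMBI, a decoy receptor of TGF-beta, at -6.32 ± 0.18 and -2.31 ± 0.18, and PDGFRA, the platelet-derived growth factor receptor, at -6.36 ± 0.12 and -4.83 ± 0.12. BAMBI read 978, 957 and 989 in U373 PBS and 399.6, 349.6 and 319 in U373 BCT-100, and 8.8, 10 and 16 and 59, 80.3 and 75 in U87. IGFBP5, which binds insulin-like growth factors, read 12400, 11509 and 12573 in U373 PBS and 1397, 1270 and 1178 in U373 BCT-100, and 3.11, 5.41 and 0 in U87 BCT-100.

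**Figure D4:**
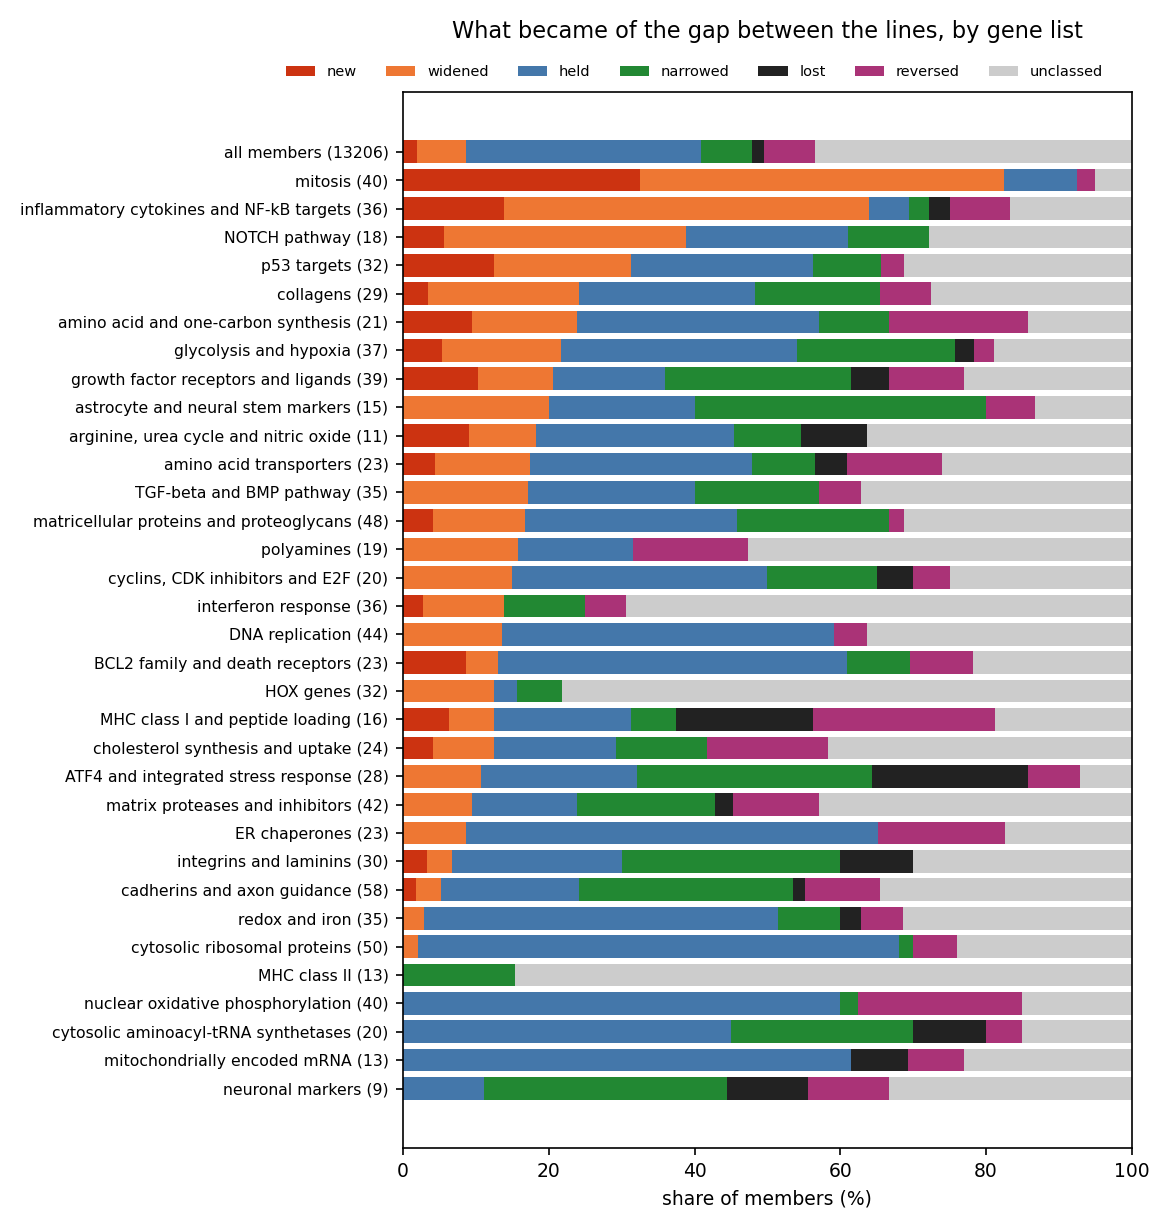
Share of members in each class of gap, for all 13206 members (top bar) and for each list with at least 9 members, ordered by the share of new and widened gaps. New and widened gaps are most of the mitosis list (33 of 40) and of the inflammatory list (23 of 36), while ribosomal proteins are mostly held (33 of 50).

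The largest gaps lay between a line that expressed a gene and one in which it was at or near 0. More broadly, 601 members were under 10 in all U87 BCT-100 libraries and at 10 or more in all U373 ones. Of these, 192 were at 0 in U87 BCT-100, 212 had a U373 BCT-100 mean of at least 200, and 449 had the same state in PBS. Of the 677 in the reverse state, these counts were 198, 187 and 478. Many of these members thus had low values, and all passed the filter through a single line. Conversely, 558 members were under 10 in all U87 PBS libraries and at 10 or more in all U373 PBS ones. Of these, 39 were at 10 or more in all U87 BCT-100 libraries, and of 556 in the reverse state, 32 were so in U373. AHR, the aryl hydrocarbon receptor, read 6284, 6231 and 6568 in U87 BCT-100 and 0 in U373 BCT-100. SERPINB2, an inhibitor of plasminogen activators, read 18078, 17377 and 18030 and 0, and GREM1, a BMP antagonist, 9139, 8747 and 9313 and 0. TFPI2, an inhibitor of serine proteases, and EREG, a ligand of EGFR, were at 20003, 19044 and 20118 and 22120, 21711 and 22876 in U87 BCT-100 and at 0, 0.996 and 1.86, and 7.42, 0.996 and 2.79, in U373 BCT-100.

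On the U373 side, PXDN, a peroxidase that crosslinks collagen IV, read 13159, 13568 and 13559 in BCT-100 and 0 in all U87 BCT-100 libraries. MTAP, which salvages methylthioadenosine from polyamine synthesis, read 4699, 4679 and 5018 in U373 BCT-100 and 0 in all 6 U87 libraries. It lies on chromosome 9 at 21802543 to 21937651 (GRCh38, GENCODE). EPB41L3, a cytoskeletal linker, and KCTD15 were likewise at 0 in every U87 library. THY1, the surface marker CD90, read 5740, 6050 and 5732 in U373 BCT-100. GFAP, the astrocyte intermediate filament, read 12048, 9613 and 8461 in U373 BCT-100 and 1.04, 0.902 and 2.17 in U87 BCT-100, against 51317, 51277 and 54054 and 3.91, 3.64 and 3.19 in PBS, so its gap narrowed from -13.48 ± 0.16 to -12.07 ± 0.16.

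Markers of cell identity were checked against the labels. Of 15 astrocyte and neural stem members, 9 were called higher in U373 and 6 in U87 in BCT-100, and 6 of the 15 passed through a single line. SOX2, the neural stem factor, read 1314, 1293 and 1271 in U373 BCT-100 and 0 in U87 BCT-100, and NES, nestin, was held at -3.01 ± 0.04. In U87, GFAP and SOX2, defining astrocyte and stem markers, were at or near 0 in both media. The list's summed value was nevertheless higher in U87 in BCT-100, at 143650 to 147713 against 99471 to 100068 in U373. In PBS it was lower in U87, at 245058 to 249852 against 293340 to 304531. The median gap of the list was -3.01 in BCT-100 and -1.45 in PBS, but the median difference of the gaps was 0.66, of opposite sign. ALDH1A3, a marker of mesenchymal glioblastoma, was higher in U87 at 2.60 ± 0.03. Of 13 leukocyte and microglial markers, 4 were members. PTPRC, the leukocyte common antigen, reached at most 2.73 in any library, and AIF1, P2RY12, CD3E and MS4A1 were listed at 0. The members were CD68, a lysosomal protein also made outside leukocytes, held at 4.01 ± 0.05, with CSF1R (3.91 ± 0.43), TMEM119 (4.68 ± 0.49) and CD14 (-2.71 ± 0.40). EPCAM, CDH1, CLDN5 and the haemoglobin genes did not meet the member rule.

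Matrix and adhesion genes differed in both directions. FN1, fibronectin, read 44567, 44487 and 46458 in U87 BCT-100 and 8432, 8411 and 8095 in U373 BCT-100 and narrowed to 2.44 ± 0.03, and MMP2, the gelatinase, was held at 2.92 ± 0.03. Of 29 collagen members, 7 of them members through a single line, 17 were called higher in U373 and 8 in U87, with COL1A1 at 6.68 ± 0.15, COL16A1 at 6.49 ± 0.09 and COL4A2, a basement membrane chain, at -6.53 ± 0.07. CTGF, a matricellular target of YAP, was held at -5.18 ± 0.05 and EFEMP1 at -6.90 ± 0.06. The cadherins CDH2 and CDH11 were held higher in U373 at -2.21 ± 0.03 and -4.97 ± 0.07. ITGA5, the fibronectin receptor subunit, was higher in U87 and narrowed from 3.53 ± 0.04 to 2.21 ± 0.04. Among growth factor genes, EGFR was not called in BCT-100, at 7138, 7087 and 7934 in U87 and 7425, 7677 and 8579 in U373 (-0.09 ± 0.05, limma adjusted p = 0.0815, 95% interval -0.20 to 0.01). NRG1, neuregulin, widened toward U87 from 1.46 ± 0.04 to 2.96 ± 0.04, and IGFBP2 toward U373 from -4.77 ± 0.10 to -5.98 ± 0.10. Of 32 HOX members, 17 were called higher in U373 and 8 in U87 in BCT-100, among them HOXB7 at -6.27 ± 0.36 and HOXB2 at 7.47 ± 0.45. In PBS the HOX counts were 21 and 7. Of the 32, 10 passed through a single line and had to differ, and the shares over all members were 42.7% and 42.3% in BCT-100.

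Glycolysis genes were mostly higher in U87 in both media. LDHA, which makes lactate from pyruvate, read 64330, 64498 and 62853 in U87 BCT-100 and 481, 467 and 444 in U373 BCT-100, a gap of 7.10 ± 0.03 against 5.93 ± 0.03 in PBS. LDHB, the other major subunit, differed by 0.68 ± 0.03. HK2, hexokinase, read 13924, 14649 and 13930 against 937, 895 and 914 and narrowed from 4.79 ± 0.05 to 3.95 ± 0.05. Of 37 glycolysis and hypoxia members, 26 were called higher in U87, 10 in U373 and 1 neither in BCT-100. Held gaps were 12 of the 37, near the 32.3% of all members. EGLN3, a HIF prolyl hydroxylase, was higher in U373 at -5.01 ± 0.51. HMOX1, heme oxygenase, narrowed from 3.02 ± 0.04 to 1.06 ± 0.04, and all 7 metallothionein members, which bind zinc and copper, were called higher in U87 with a median of 3.15, although 3 of the 7 passed through a single line and had to differ.

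Transcripts encoded by mitochondrial DNA made up 3.66% ± 0.056 (SD, n = 3) of value in U87 BCT-100 and 3.38% ± 0.071 in U373 BCT-100, against 5.92% ± 0.124 and 4.31% ± 0.048 in PBS. The U87 shares did not overlap the U373 shares in either medium, and the exact two-sided permutation p was 0.1 each time, the smallest that 3 against 3 libraries allow. Of the 13 genes, 10 were called higher in U87 in BCT-100 and 2 in U373, against 12 and 0 in PBS. The median gap was 0.27 in BCT-100 and 0.65 in PBS. The difference of the gaps was called toward U373 at 11 of the 13 (31.4% of all members) and toward U87 at 0 (26.5%). Even so, 8 gaps met the rule for held (32.3% of all members). MT-ND1 was held at 0.48 ± 0.02, and MT-CO2 reversed from 0.14 ± 0.02 to -0.25 ± 0.02. Among ribosomal protein genes the gap was held at 33 of 50 (against 32.3% of all members), with a median gap of -0.06. RPL5 widened toward U373 to -1.39 ± 0.03, and RPL3 was held toward U87 at 1.06 ± 0.02. The ribosomal list made up 3.12% ± 0.072 (SD, n = 3) of value in U87 BCT-100 and 3.41% ± 0.074 in U373 BCT-100. In PBS the order was the other way, at 2.87% ± 0.069 and 2.64% ± 0.026, and each comparison again gave an exact two-sided permutation p of 0.1. The difference of the gaps was called toward U373 at 31 of the 50 (31.4% of all members) and toward U87 at 3 (26.5%). The count toward U87 was 5 without U87 PBS replicate 2 or U373 BCT-100 replicate 2.

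The median gap differed between chromosomes. GENCODE positions on GRCh38 were matched for 12662 members, and 544 had none. On chromosome 22 the median gap over 276 members was 0.60 in BCT-100 and 0.59 in PBS, and 73.6% were called higher in U87 against 42.3% of all members. Chromosome 12 had medians of 0.48 and 0.56, and chromosome 14 of 0.34 and 0.31. U373 was favoured on chromosome 6 (-0.44 and -0.49), chromosome 17 (-0.36 and -0.33) and chromosome 15 (-0.32 and -0.25). On other chromosomes the media differed more, with medians of 0.31 in BCT-100 and 0.48 in PBS on chromosome 18, 0.21 and 0.38 on chromosome 13, and 0.09 and 0.18 on chromosome 2. For the 13 mitochondrial genes they were 0.27 and 0.65. These medians are descriptions, given with no test, and copy number was not measured.

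**Figure D5:**
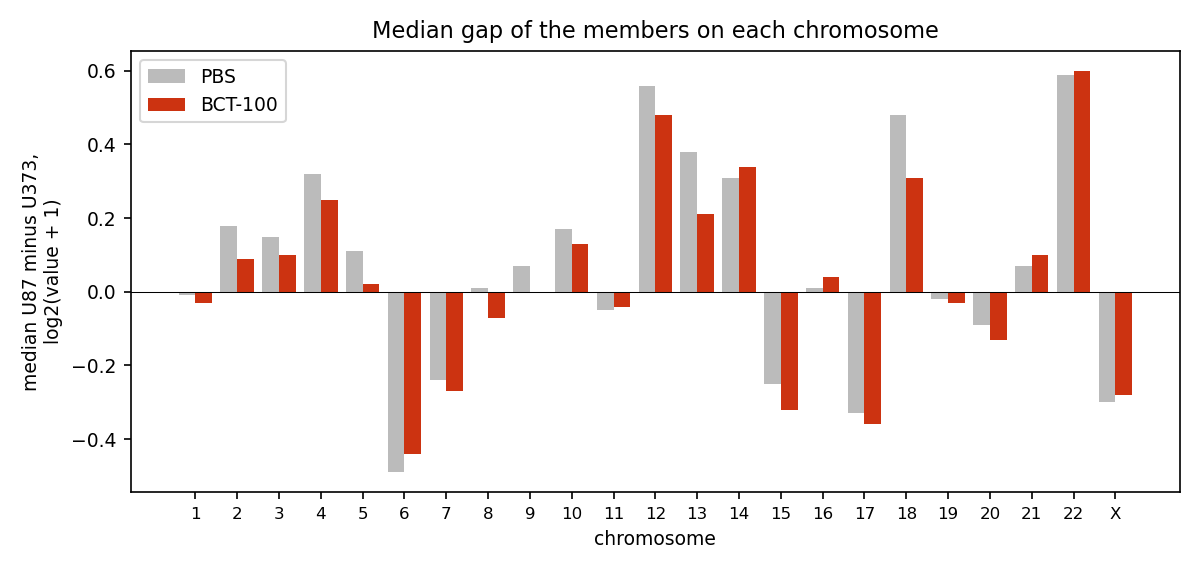
Median U87 minus U373 gap, in log2(value + 1), over the members on each chromosome, in PBS (grey bars) and in BCT-100 (red bars). Chromosomes 22 and 12 stand above 0 and chromosomes 6 and 17 below 0 by similar amounts in both media.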

How the data were processed

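RNA was sequenced from 12 libraries in 4 groups of 3. STAR, RSEM and build hg38 are named, per the submitters' processing notes, with versions not given in the sources used here. The deposited values are a signal in which estimated counts appear divided by 1 factor for each library, judged from the values themselves. Steps of low values gave that factor and, from it, the depth, but only 85.3% to 86.9% of values were whole multiples within 0.001, so no count model was run in place of the planned log-scale test. Depth of 18.89 to 25.92 M reads leaves counting error that matters mainly for genes near 10. Fold bounds against a group at 0 use 3 reads over that group and cover counting error only.

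After 20 exact repeats were dropped, 13628 genes that reached 10 in 3 or more of the 12 libraries were fitted with limma 3.58.1 (R 4.3.3) on log2(value + 1), with a trended, robust prior and 4 group means. Adjusted p-values (Benjamini-Hochberg, threshold 0.05) run over all genes fitted. The fit was tested on simulated data. No replicate pair agreed within counting noise, with a chi-square per gene of 2.29 to 3.78.

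The members and the gene lists were chosen with earlier results of these data known, so no list is independent evidence. Genes were named by a rule: a fixed panel, the largest gaps, the largest differences of gaps in each class and direction (mean of at least 200 in the higher group, no overlap) and, from each list, the smallest adjusted p and the largest gap against the majority. The following were named after their values were seen: CSF1, IL1B, NFKBIA, NFKB2, TNFAIP3, LCN2, IL24, HLA-B, HLA-C, HLA-F, HLA-DOB, TAP1, PSMB8, FAS, BTG2, RRM2B, CYFIP2, DDAH2, PYCR1, LDHB, CSF1R, TMEM119 and CD14. Gene positions come from GENCODE on GRCh38 and promoter windows from RefSeq (GRCh38.p14), matched by symbol. Alternatives covered scaling, pseudocount, filters, voom weights, separate fits, a replicate block, each library left out and the class bounds.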

Additional observations from a re-analysis of the deposited data

Results flagged for a closer look

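Groups of 3 libraries are too small for a test of single outlying samples. All results given here were picked out because the gap between the lines in BCT-100 differed from that in PBS by the test of the difference itself (limma, adjusted over all genes fitted). This held for 7634 members. The values that follow are differences of gaps, in log2(value + 1), positive toward U87.

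Among new gaps, BIRC3 had a difference of 3.95 and ANK3 of 3.25 toward U87, and FERMT1 of -2.60 and CPA4 of -2.43 toward U373. Among lost gaps that had favoured U87, PPARGC1B had -3.51 and NCR3LG1 -2.81, and among those that had favoured U373, CADM1 had 3.58 and MARCKS 2.78. Reversed gaps were led by NRXN3 at 5.77 and IL32 at 5.58 toward U87, and by EVI2A at -3.50 and KIF21B at -3.09 toward U373. Widened gaps were led by OLAH at 6.65 and SPRR2D at 6.53 toward U87, and by PTCHD1 at -4.79 and ST6GALNAC3 at -4.47 toward U373. Narrowed gaps were led by CCND2 at -5.94 and KIAA1644 at -5.27 where U87 was higher, and by PCDH20 at 4.84 and BAMBI at 4.01 where U373 was higher. In CCND2, CXCL1, SPRR2D and other genes at or near 0 in 1 group, the fitted difference depends on the pseudocount of 1.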

How the results depend on the processing

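Counts of calls and of classes over all members stayed within 1.5 times the reported count under every alternative run, except where the class bounds themselves were changed. Some counts within lists moved by more, and those that turn on 1 library are given beside the list. With the narrowest margin tried, 1997 gaps were held, 85 new and 58 lost, and with a margin of 2-fold, 492 were widened, 750 new and 642 lost. With a minimum of 1.5-fold, 1020 gaps were new and 849 lost, and with a minimum of 4-fold, 15 and 23. With each library left out in turn, held gaps ranged from 4036 to 4180, widened from 815 to 865, narrowed from 888 to 934, reversed from 851 to 906, new from 240 to 275 and lost from 188 to 226. Calls in BCT-100 then ranged from 5452 to 5603 (U87 higher) and 5506 to 5642 (U373 higher), in PBS from 5572 to 5731 and 5154 to 5327, and for the difference of the gaps from 3306 to 3418 above 0 and 3938 to 4121 below. Same-numbered libraries did not deviate together (correlations -0.102 to 0.063), so no pairing by number was seen in the values. These correlations cannot show whether same-numbered cultures were handled together, which the labels do not say. With a replicate block, 5589 and 5639 members were called in BCT-100, and 4272 gaps were held, 262 new and 217 lost.

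Of 10248 values over 228 named genes and 23 settings, 173 lost their call, 61 gained one and 1 called value changed sign. The other 10013 were counted as unchanged, which includes any change of sign in a value that was not called. The called value that changed sign was the RPL13 difference of the gaps, -0.004926 under quantile normalization against 0.14 with the deposited scaling. The cause was not tested. The interferon list depends on U373 PBS replicate 1, as given with its values. An edgeR fit was not run, since the values are not counts. Depth limits calls for genes near 10.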

Other observations

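Several gene groups have not been described above. Among nuclear genes of oxidative phosphorylation, 23 of 40 members were called higher in U87 and 16 in U373 in BCT-100, against 29 and 7 in PBS. Of the 40, 24 were held and 9 reversed (against 32.3% and 6.95% of all members). Among endoplasmic reticulum chaperones, 14 of 23 members were called higher in U87 and 6 in U373 in BCT-100, against 11 in each direction in PBS. Of the 23, 13 were held (against 32.3% of all members). Among cholesterol synthesis and uptake genes, 12 of 24 members were called higher in U87 and 8 in U373 in BCT-100, against 8 and 14 in PBS, so more members were higher in U87 under depletion and more were higher in U373 without it. Among redox and iron genes, 18 of 35 members were called higher in U87 and 15 in U373 in BCT-100 (1 passed through a single line). Of the 35, 17 were held (against 32.3% of all members).

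Counts in most cell surface and matrix groups lay near the shares over all members, 42.3% higher in U87 and 42.7% higher in U373. Among cadherin and axon guidance genes, 25 of 58 members were called higher in U87 and 30 in U373 in BCT-100 (18 passed through a single line). Of these gaps, 17 had narrowed (against 7.03% of all members). Among matrix proteases and their inhibitors, 25 of 42 members were called higher in U87 and 16 in U373 in BCT-100 (10 passed through a single line). Among matricellular proteins and proteoglycans, 25 of 48 members were called higher in U87 and 22 in U373 in BCT-100 (9 passed through a single line). Among integrins and laminins, 14 of 30 members were called higher in U87 and 15 in U373 in BCT-100 (4 passed through a single line). In PBS these counts were 17 and 12, and 9 gaps had narrowed (against 7.03% of all members). In the TGF-beta and BMP pathway, 16 of 35 members were called higher in U87 and 18 in U373 in BCT-100 (5 passed through a single line). The difference of their gaps was called toward U373 at 18 (31.4% of all members) and toward U87 at 4 (26.5%). The count toward U87 was 7 without U373 BCT-100 replicate 2. Among growth factor receptors and ligands, 19 of 39 members were called higher in U87 and 16 in U373 in BCT-100 (7 passed through a single line). Of the 39 gaps, 10 had narrowed and 4 were new (against 7.03% and 1.96% of all members). Among neuronal markers, 6 of 9 members were called higher in U87 and 3 in U373 in BCT-100 (2 passed through a single line). Of the 5 epithelial members, 2 were called higher in U87, 2 in U373 and 1 neither in BCT-100 (1 passed through a single line). In PBS the epithelial counts were 1 higher in U87 and 4 in U373. KRT18, at -6.97 ± 0.38, and OCLN, at -4.06 ± 0.22, were the 2 higher in U373 in BCT-100. Of the endothelial and erythroid markers, 3 were members, all through a single line: TEK (5.39 ± 0.47), PECAM1 (3.90 ± 0.51) and CDH5 (-3.49 ± 0.51).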
